A study of Homo sapiens with 6 samples.

Results

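Intercellular junctions hold the cells of an epithelium together, and 38 genes of 4 kinds of junction were followed in HT29, a human colon adenocarcinoma cell line, grown with and without NS398, a compound that blocks cyclooxygenase-2 (COX2) selectively. The genes are a part of the known components of tight, adherens and gap junctions and desmosomes, with some related adhesion proteins. They were chosen by name, with earlier results of these data known. A gene counted as measured where at least 1 probe set of the array was annotated to it alone. This held for 36 of the 38 genes, out of 19775 genes measured on the array. CTNND1 (p120-catenin) has 4 probe sets, each naming more than 1 gene, and F11R (the adhesion molecule JAM-A) is named by no probe set of the annotation, so neither was analysed here. Total RNA of 3 samples of NS398-treated cells and 3 samples of control cells was hybridised, each sample on its own HG-U133 Plus 2.0 array. Per the methods of the study, the treated cells received NS398 dissolved in DMSO in serum-free medium, and the control cells received DMSO alone. The dose was the highest that the study applied to these cells, and the study reports inhibition of proliferation that depended on the dose. All samples are of a single cell line, and the p-values below hold for the spread of these 6 samples. Per the methods of the study these are biological replicates, and the labels add nothing on how cultures were divided. In bulk RNA, fewer cells expressing a gene and less RNA per cell cannot be told apart.

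Tight junctions seal the space between neighbouring cells, and their claudins decide which ions and how much water pass. Adherens junctions and desmosomes bind cells through cadherins, which catenins, plakoglobin and plakins tie to actin and to keratin filaments. Gap junctions are channels of connexins through which small molecules pass from cell to cell. In the colon these structures make up the mucosal barrier, and the catenins also serve in Wnt signalling.

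Signals are the linear probe set values that the authors deposited. A difference is the mean log2 signal of NS398 arrays minus that of control arrays, given ± its standard error (SE), and each gene was read from its probe set with the highest mean signal. Calls are those of limma with a prior variance that follows the signal level and an adjusted p under 0.05 over all probe sets. Directions follow the deposited labels. They are opposite to the direction in which the study's list of changed transcripts places CLDN2, JUP, CTNNA1 and CDH3. The text of the study, however, places CDH3 and CLDN8 on the same side as here. It reports both as significant, and states no adjustment for the number of tests. Neither passed the adjusted threshold used here, whereas at an unadjusted p under 0.05 limma had CDH3 but not CLDN8. Which arrays were treated therefore rests on the labels.

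Of the 36 measured junction genes, 4 were higher and 4 were lower in NS398-treated cells. CLDN1, CLDN7, GJB2 and GJB6 rose, and CLDN2, JUP, CTNNA1 and GJB1 fell. These 8 genes are 22.2% of the 36. Of all genes of the array, 10.1% were called, 5.23% as higher and 4.85% as lower. Called genes were more frequent among those whose log2 signal averaged over 7 (a signal of 128), which are named bright below. Of 28 bright junction genes 7 were called (25.0%), 3 as higher and 4 as lower, while the share among all bright genes was 17.7%, 9.06% as higher and 8.66% as lower. The groups did not overlap in 16 of the 28 (57.1%), and in 45.1% of all bright genes. The share of calls among the junction genes was thus above that of the array as a whole, and the gap was narrower between bright genes. Neither gap was tested, and the junction genes were listed with earlier results of these data known. In the lists of other junction genes read below, 3 of 29 tight junction, 2 of 17 adherens junction, 0 of 8 desmosome and 2 of 11 gap junction genes were called. Bright genes numbered 17, 12, 2 and 1 in these lists, against 28 of the 36 followed here. The part of signal level in these counts was not tested. The median difference of the 36 genes was 0.06, that of all genes 0.06. With a single prior variance for all probe sets (plain limma), 0 of the 36 genes passed and 9 had an unadjusted p under 0.05. The adjusted p of the 8 called genes then lay between 0.0923 and 0.387.

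**Figure D1:**
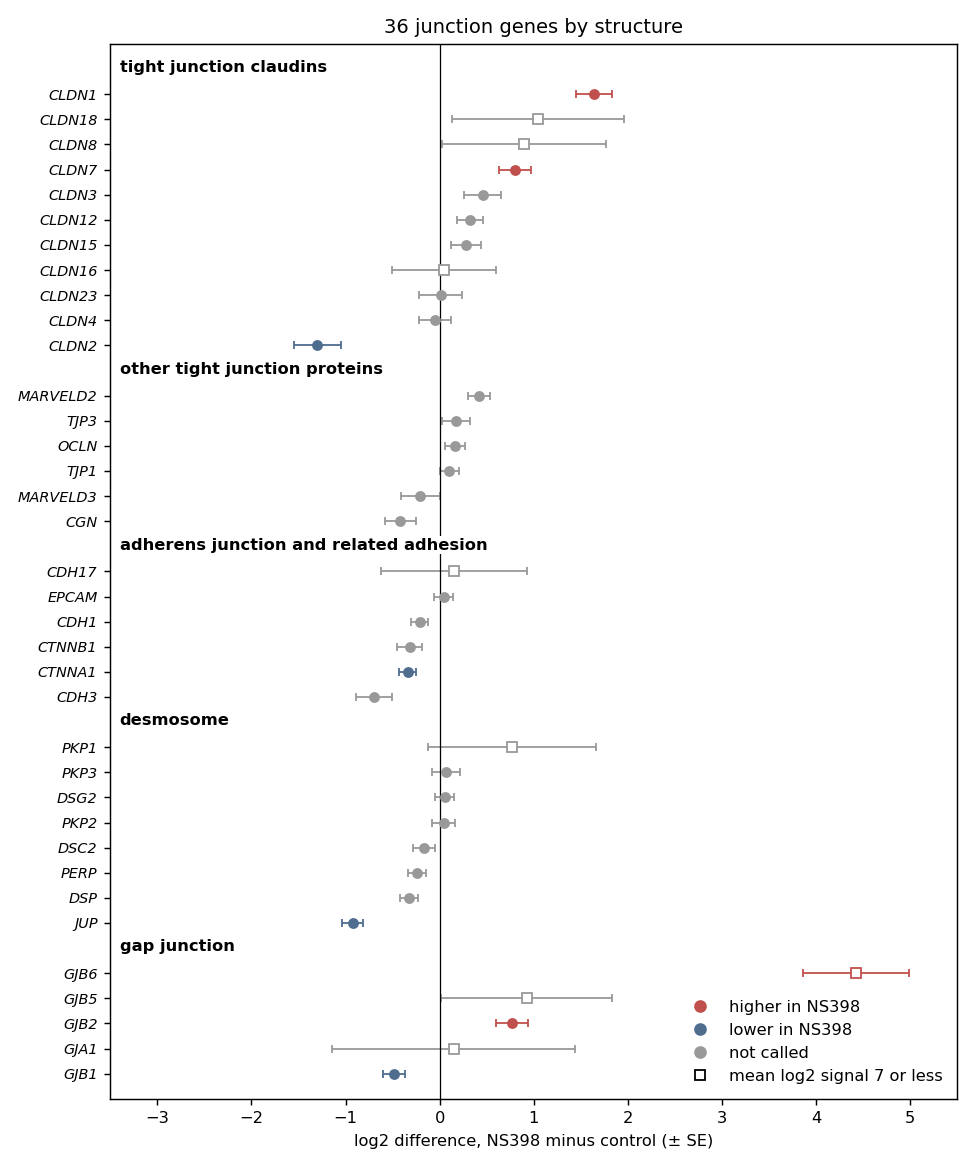
Log2 difference (NS398 minus control, x axis) of the 36 measured junction genes, grouped by structure, as points with bars of ± SE from limma (3 arrays a group). Red points are higher and blue points lower in NS398 arrays by the test, grey points were not called, and open squares mark genes with a mean log2 signal of 7 or less. GJB6 lies at 4.42, CLDN1 at 1.64 and CLDN2 at -1.30, and most desmosome and adherens genes lie within 0.50 of 0.

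Of 3 measures of RNA quality, 1 was apart between the groups. For ACTB, whose control probe sets at the 3' and 5' ends report on RNA quality, the 3'/5' ratio was 1.56 ± 0.13 in NS398 and 1.29 ± 0.03 in control arrays (SD, n = 3 each). A two-sided exact permutation test gave p = 0.1, the lowest value possible with 3 arrays in each group. The groups overlapped in the same ratio of GAPDH, at 1.04 to 1.21 in NS398 and 0.969 to 1.08 in control arrays (exact permutation p = 0.5). They also overlapped, by a narrow margin, in the signal of the 3' control probe set of 18S rRNA, at 4825 to 23625 in NS398 and 3453 to 4856 in control arrays (exact permutation p = 0.2). The part of these measures in the results below was not tested. Among 10 markers of a colon epithelial line 4 rose, 1 fell and 5 were not called, where 10.1% of all genes and 17.7% of bright genes were called. CEACAM5 rose to 7861 in NS398 arrays, against 463 in control arrays, KRT20 to 17811 against 8022 and LGALS4 to 32429 against 24959. VIL1 (villin) fell to 2030, against 3313. The summed signal of the 10 markers, which includes these changes of single genes, was 134781.5 to 140753.9 in NS398 and 99883.6 to 117270.6 in control arrays. By their mean over all arrays 8 of these 10 markers were bright and 2 dim. One of the dim genes was CDX2, an intestinal transcription factor, which was dim in all arrays (21.4 to 89.5). Of 10 fibroblast markers, LUM (lumican) rose to 215 in NS398 arrays, against 45.5 in control arrays. LUM and 8 others were dim by their mean over all arrays, and COL1A1 alone was bright, with 445, 477 and 355 in NS398 and 388, 338 and 213 in control arrays. The summed signal of all 10 was 912 to 1078 in NS398 and 680.5 to 1011 in control arrays. Of 8 leukocyte and 8 endothelial markers limma called 0 and 0, with 0 and 0 at an unadjusted p under 0.05 (1 and 0 by plain limma). Bright ones numbered 2 and 2, among them LYZ (lysozyme) of the leukocyte list, with 25454 to 33637 over the 6 arrays.

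Claudins are the 4-span proteins that form the strands of tight junctions. Of 11 claudins, 3 were called, where the array had calls in 10.1% of all genes and 17.7% of bright genes. CLDN1, a sealing claudin of many epithelia, had signals of 1380.5, 1300 and 1317 in NS398 arrays, and of 581, 350.5 and 381 in control arrays (probe set 222549_at). The NS398 arrays lay close together, and all were above the highest control array. CLDN1 rose 3.12-fold (1.64 ± 0.19, limma adjusted p = 5.51e-04). Its dimmer probe set, 218182_s_at, had a difference of 0.82 ± 0.41 that did not pass (limma adjusted p = 0.329), with 277, 194 and 120 in NS398 arrays and 166, 61.8 and 113 in control arrays. With the mean of both probe sets in place of the brightest, the difference of CLDN1 was 1.23 and passed (limma adjusted p = 0.0308).

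CLDN2, which forms pores for cations and water, moved the other way. It had 960, 1446.5 and 1291 in NS398 arrays, and 4564, 2015 and 2897 in control arrays (223509_at). Every NS398 array was below every control array, and control replicate 1 was the highest by a wide margin. CLDN2 fell to 1215 in NS398 arrays, against 2987 in control arrays (-1.30 ± 0.25, limma adjusted p = 0.0110). Its adjusted p was 0.0566 without NS398 replicate 1 and 0.0512 without control replicate 3. CLDN7, which also lies along the lateral membrane and binds EPCAM, had 8764, 7923 and 10781 in NS398 arrays, and 6865, 4502 and 4580 in control arrays. The groups did not overlap, with control replicate 1 nearest to the NS398 arrays. CLDN7 rose 1.74-fold (0.80 ± 0.17, limma adjusted p = 0.0152). The call of CLDN7 was the least stable of these claudins, with an adjusted p of 0.0542 without NS398 replicate 1, 0.0700 without NS398 replicate 3, 0.0558 without control replicate 2, 0.0856 without control replicate 3 and 0.0515 after each array was centred on its median.

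The other 8 claudins were not called. CLDN12 and CLDN15, a cation channel former of the intestine, had NS398 arrays wholly above the control arrays, with differences of 0.32 ± 0.14 and 0.28 ± 0.16. CLDN3, a sealing claudin, had 7148, 8174 and 8073 in NS398 arrays, and 8148.5, 4120 and 5408 in control arrays. Its groups overlapped through control replicate 1 alone. CLDN3 had a difference of 0.46 ± 0.20 (limma adjusted p = 0.234), and without control replicate 1 it was 0.72 and passed (0.00752). For CLDN4, another sealing claudin and the neighbour of CLDN3 on chromosome 7, the difference was -0.05 ± 0.17, and for CLDN23 it was 0.01 ± 0.23. CLDN8, a claudin of the distal colon, was dim, with 25.8, 12.7 and 8.8 in NS398 arrays and 7.5, 6.5 and 9.2 in control arrays. These groups overlapped, and the difference of 0.89 ± 0.87 did not pass (limma adjusted p = 0.660). CLDN16, a renal claudin, and CLDN18, the claudin of stomach and lung, were dim as well, and their signals reached 82.8 and 108 at most. No single claudin thus stands for the family, whose differences ranged from -1.30 (CLDN2) to 1.64 (CLDN1) with a median of 0.32.

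**Figure D2:**
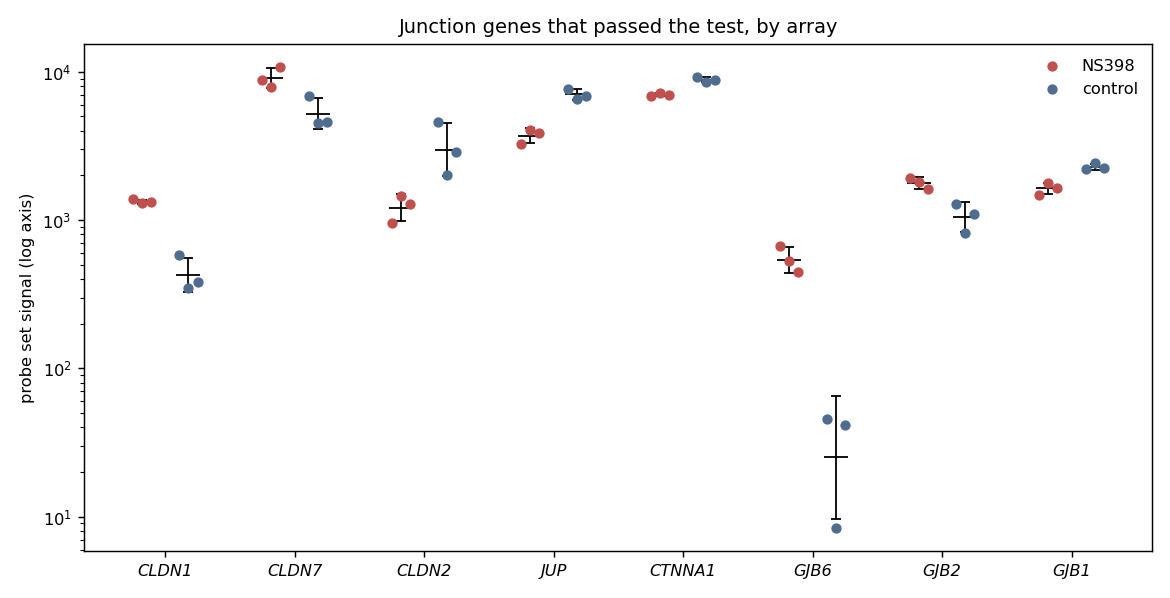
Probe set signal (log axis) of the 8 called junction genes in each of the 3 NS398 arrays (red) and 3 control arrays (blue), where black bars give each group's log2 mean ± SD. The groups do not overlap in any of the 8 genes, which were called from these same values. The control arrays of GJB6 (8.4 to 45.9) are near the lower end of the scale.

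Among the other tight junction proteins limma called 0 of 6, with 2 at an unadjusted p under 0.05 (1 by plain limma). MARVELD2 (tricellulin), which closes the points where 3 cells meet, had 1809, 2012 and 2061 in NS398 arrays, and 1382, 1549 and 1458 in control arrays. The groups did not overlap, and the difference of 0.42 ± 0.12 was just beyond the threshold (limma adjusted p = 0.0602). It passed in 4 of 15 alternative settings. Its neighbour on chromosome 5, OCLN (occludin), had a difference of 0.16 ± 0.11, and the third protein of this family, MARVELD3, one of -0.21 ± 0.21. CGN (cingulin), which links the junction to actin and myosin, had 489, 575 and 497 in NS398 arrays, and 788, 707 and 598 in control arrays. Although every NS398 array was below every control array, the difference of -0.42 ± 0.16 did not pass (limma adjusted p = 0.190). The scaffold proteins TJP1 (ZO-1) and TJP3 (ZO-3), which gather claudins at the membrane, had differences of 0.10 ± 0.10 and 0.17 ± 0.15.

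A further 29 genes of tight junctions and cell polarity were read, of which 1 rose and 2 fell. On the array, 10.1% of all genes and 17.7% of bright genes were called. CXADR, an adhesion receptor of the tight junction, had 2575, 2678 and 2591 in NS398 arrays, and 3740, 4389 and 4509 in control arrays (-0.68 ± 0.11, limma adjusted p = 0.00329). CGNL1 (paracingulin), the relative of cingulin, had 592, 688 and 685 in NS398 arrays, and 921, 1536 and 1405 in control arrays (-0.94 ± 0.19, limma adjusted p = 0.0129). PARD6B, of the PAR polarity complex, had 855, 743.5 and 654 in NS398 arrays, and 444, 397.7 and 525 in control arrays (0.72 ± 0.17, limma adjusted p = 0.0301). In all 3 genes the groups were apart, as they were in 45.1% of all bright genes. The calls rest on the same values.

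Of 6 genes of adherens junctions and related adhesion, 1 (CTNNA1) passed, where 10.1% of all genes and 17.7% of bright genes did. The groups were apart in 3 of the 6, of which 5 were bright, each time with the NS398 arrays below. This share is near that of the array, where the groups were apart in 30.6% of all genes and 45.1% of bright genes. The median difference of the 6 genes was -0.27. CDH1 (E-cadherin), the main cadherin of epithelia, had 9850, 8660 and 9067 in NS398 arrays, and 11310, 10303 and 10337 in control arrays. The groups did not overlap, but the difference was only -0.21 ± 0.09 (limma adjusted p = 0.241). CDH3 (P-cadherin), the neighbour of CDH1 on chromosome 16, had 391, 446 and 601 in NS398 arrays, and 694, 712 and 903 in control arrays. Here too every NS398 array was the lower, by 1.62-fold as a mean, and the difference of -0.70 ± 0.19 missed the threshold narrowly (limma adjusted p = 0.0588). It passed in 4 of 15 settings, among them without NS398 replicate 3 (0.0327). CDH17, the cadherin of the intestinal lateral membrane, was dim, with 76.4, 12.2 and 101 in NS398 arrays and 33.5, 49.6 and 41.1 in control arrays.

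CTNNA1 (alpha-catenin), which connects the cadherin complex to actin, had 6857, 7179 and 6990 in NS398 arrays, and 9268, 8563 and 8774 in control arrays (210844_x_at). The spread within each group was small, and CTNNA1 fell 1.26-fold (-0.34 ± 0.09, limma adjusted p = 0.0434). All 5 of its probe sets were lower in NS398 arrays, and 3 of them passed. The suffix _x of the brightest marks probes that may also bind other transcripts. Another of the 3, 200764_s_at, carries the suffix _s (-0.38 ± 0.10, limma adjusted p = 0.0434), which does not mark a set as specific to 1 transcript either. This was the least stable call of all, passing in 6 of 15 settings. The adjusted p was 0.163, 0.141 and 0.114 without NS398 replicates 1, 2 and 3, 0.0528, 0.0613 and 0.132 without control replicates 1, 2 and 3, and 0.0673 after median centring. CTNNB1 (beta-catenin), the partner of the cadherins and of the TCF factors, had 1988.5, 2095 and 1877 in NS398 arrays, and 2045, 2684 and 2772 in control arrays. Control replicate 1 lay within the NS398 range, and the difference was -0.32 ± 0.14 (limma adjusted p = 0.228, or 0.0283 without control replicate 1). EPCAM, an adhesion protein found on nearly all cells of the gut epithelium, had a difference of 0.04 ± 0.10, and its sign changed with the scaling of the arrays (-0.078 after median centring).

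Of 17 other genes of adherens junctions, 2 fell and 0 rose, where 10.1% of all genes and 17.7% of bright genes were called. CTNNAL1 (alpha-catulin), a relative of alpha-catenin, had 826, 1051 and 964 in NS398 arrays, and 1978.5, 1848 and 1838 in control arrays (-1.002 ± 0.13, limma adjusted p = 0.00112). VCL (vinculin), which strengthens the link of alpha-catenin to actin, had 1441, 1663 and 1514 in NS398 arrays, and 2353, 2049 and 2078 in control arrays (-0.49 ± 0.12, limma adjusted p = 0.0335). Among 10 repressors of E-cadherin and mesenchymal markers FN1 (fibronectin) fell to 146 in NS398 arrays, against 274 in control arrays (-0.90 ± 0.24, limma adjusted p = 0.0460). The repressors SNAI1, SNAI2, ZEB1, ZEB2, TWIST1 and TWIST2 were dim, with at most 127 in any array. The differences of this list ranged from -1.86 ± 0.91 (ZEB2) to 1.74 ± 0.72 (SNAI1, with overlapping groups), neither of them called. At an unadjusted p under 0.05, limma had 2 of the 10 genes (2 by plain limma). Of 12 epithelial regulators such as GRHL2 and KLF5, limma called 0, with 3 at an unadjusted p under 0.05 (1 by plain limma).

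Of 8 desmosome genes, JUP alone was called, where 10.1% of all genes and 17.7% of bright genes were. The median difference of the 8 genes was -0.06. JUP (plakoglobin), the catenin that desmosomes share with adherens junctions, had 3260, 4078 and 3847 in NS398 arrays, and 7697, 6564.5 and 6926 in control arrays (201015_s_at). The groups were far apart, with the highest NS398 array well below the lowest control array. JUP fell 1.90-fold (-0.92 ± 0.11, limma adjusted p = 7.67e-04), and it passed in 14 of 15 settings, plain limma being the exception. DSP (desmoplakin), which anchors keratin filaments, had 5100, 5175 and 4633 in NS398 arrays, and 6324, 5916 and 6411 in control arrays. The NS398 arrays were the lower without overlap, but the difference of -0.32 ± 0.10 did not pass (limma adjusted p = 0.0749). The desmosomal cadherins DSG2 and DSC2 had differences of 0.05 ± 0.10 and -0.17 ± 0.12, and the plakophilins PKP2 and PKP3, which brace the plaque, 0.04 ± 0.12 and 0.06 ± 0.15. PERP, a p53-induced membrane protein of desmosomes, had 16074, 16644 and 15287 in NS398 arrays, and 16682, 20818.5 and 19332 in control arrays. The lowest control array was only just above the highest NS398 array, and the difference was -0.24 ± 0.10 (limma adjusted p = 0.210, or 0.0351 without control replicate 1). PKP1, a plakophilin of stratified epithelia, was dim, with 30.4 at most. Of 8 other desmosome genes limma called 0, with 1 at an unadjusted p under 0.05 (2 by plain limma).

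**Figure D3:**
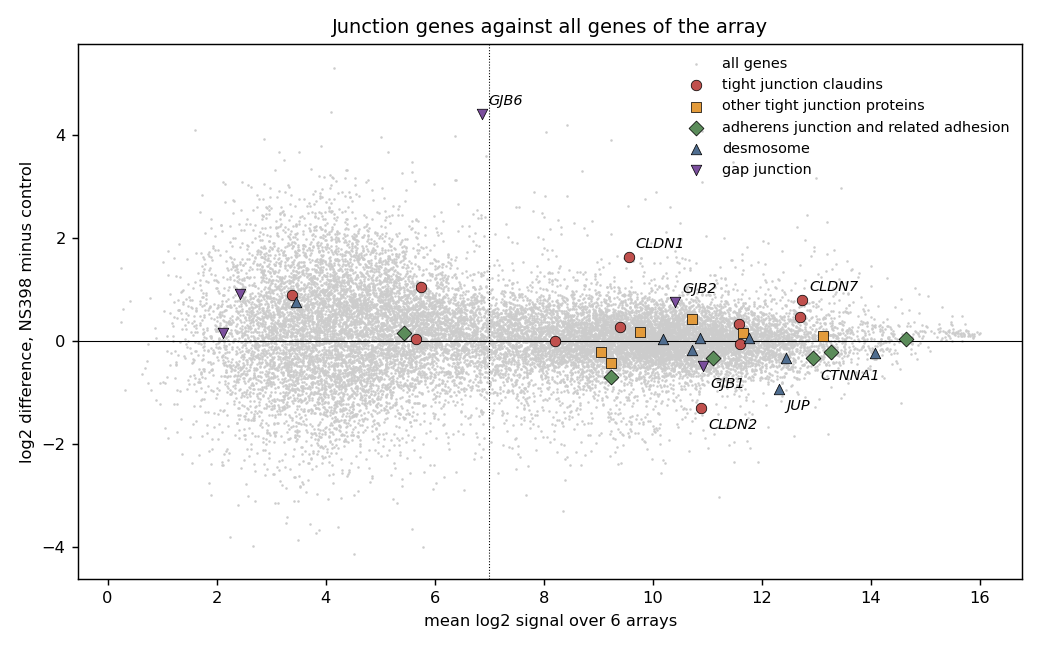
Log2 difference (NS398 minus control, y axis) against the mean log2 signal over the 6 arrays (x axis) for all 19775 genes (grey) and the 36 junction genes (coloured by structure), with the called genes named and a dotted line at a mean log2 signal of 7. Differences of dim genes spread widely on both sides of 0, and 28 of the junction genes lie to the right of the line.

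Connexins gave the largest difference of the set. GJB6 (connexin 30), a channel protein of skin and inner ear, had 667, 526 and 445 in NS398 arrays, and 45.9, 8.4 and 41.2 in control arrays (231771_at). All 3 control signals were dim and all 3 NS398 signals bright. GJB6 rose to 539 in NS398 arrays, against 25.1 in control arrays (4.42 ± 0.56, limma adjusted p = 9.22e-04). The size of this difference depends on the dim control signals. It was 3.22 with an offset of 32 added to every signal and 3.63 without control replicate 2, and the gene passed in 13 of 14 settings.

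GJB2 (connexin 26), which pairs with connexin 30 in shared channels, had 1929, 1811 and 1615.5 in NS398 arrays, and 1284, 816 and 1096 in control arrays (223278_at). The groups did not overlap. GJB2 rose 1.70-fold (0.77 ± 0.17, limma adjusted p = 0.0201). The adjusted p of GJB2 was 0.0946 without NS398 replicate 1, 0.0868 without NS398 replicate 2, 0.0509 without control replicate 2, 0.0686 without control replicate 3 and 0.103 after median centring. GJB2 and GJB6 lie next to each other on chromosome 13 in the RefSeq annotation. They were the only 1 of 5 neighbouring pairs among the listed genes in which both members were called. The other pairs were CLDN3 with CLDN4, CDH3 with CDH1, MARVELD2 with OCLN and CLDN16 with CLDN1. The share of such pairs over the array was not computed, and a shared control of GJB2 and GJB6 was not tested.

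GJB1 (connexin 32), the connexin of liver and other glandular epithelia, moved in the opposite direction. It had 1482, 1779 and 1656 in NS398 arrays, and 2212.5, 2422 and 2250 in control arrays (204973_at). All NS398 arrays were the lower. GJB1 fell 1.40-fold (-0.49 ± 0.12, limma adjusted p = 0.0314). The adjusted p of GJB1 was 0.139, 0.0705 and 0.0792 without NS398 replicates 1, 2 and 3, and 0.0957 and 0.104 without control replicates 2 and 3. GJA1 (connexin 43), the most widespread connexin, had 6.6, 2.3 and 6.4 in NS398 arrays, and 39.3, 1.3 and 1.4 in control arrays, and GJB5 did not exceed 10.3. Both were too dim for a difference to be read.

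The promoters of the connexins that were called, and of CLDN1, are shown because these are the called genes with 1 start in the RefSeq promoter table (GRCh38.p14), and because the neighbours GJB2 and GJB6 rose together. Each is the 250 bases before the start, 5′ to 3′ on the strand of the gene, with every GGGCGG (GC box, either strand) in capitals.
GJB6: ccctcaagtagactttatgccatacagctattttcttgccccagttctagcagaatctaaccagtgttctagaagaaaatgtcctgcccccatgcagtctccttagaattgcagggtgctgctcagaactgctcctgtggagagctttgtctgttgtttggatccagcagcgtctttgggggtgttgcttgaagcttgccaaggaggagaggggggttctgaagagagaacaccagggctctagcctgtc
GJB2: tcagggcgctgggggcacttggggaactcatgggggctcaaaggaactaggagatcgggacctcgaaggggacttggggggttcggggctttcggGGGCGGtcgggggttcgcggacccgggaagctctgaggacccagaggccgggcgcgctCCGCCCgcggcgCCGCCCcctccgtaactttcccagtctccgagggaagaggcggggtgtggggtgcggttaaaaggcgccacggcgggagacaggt
GJB1: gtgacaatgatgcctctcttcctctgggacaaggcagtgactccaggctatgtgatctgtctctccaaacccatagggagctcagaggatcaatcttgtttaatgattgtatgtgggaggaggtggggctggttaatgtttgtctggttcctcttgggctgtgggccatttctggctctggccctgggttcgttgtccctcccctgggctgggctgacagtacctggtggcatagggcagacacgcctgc
CLDN1: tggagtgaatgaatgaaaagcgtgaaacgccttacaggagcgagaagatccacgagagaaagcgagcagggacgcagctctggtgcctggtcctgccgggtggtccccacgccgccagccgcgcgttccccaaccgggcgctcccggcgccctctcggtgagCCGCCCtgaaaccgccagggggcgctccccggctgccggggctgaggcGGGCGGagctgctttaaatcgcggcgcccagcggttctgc
They lie at chr13:20230979-20231228 (minus strand), chr13:20192939-20193188 (minus), chrX:71214989-71215238 (plus) and chr3:190322447-190322696 (minus), in this order. The neighbours GJB6 and GJB2 differ in composition, with 50.8% and 70.0% G and C (median of all promoters, 58.0%). GJB2 holds 3 GC boxes and CLDN1 2, while the windows of GJB6 and GJB1 hold 0, and 42.6% of the 35116 promoters in the table hold at least 1. The TATA box (TATAAA), the E-box CAGGTG that SNAI and ZEB factors bind, the AP-1 element (TGANTCA), a TCF/LEF element (CTTTGAT), an ATF4 element (TGATGNAA) and the core of the antioxidant response element (TGACNNNGC) were searched on both strands as well. None of these letters occurs in the 4 windows, and they occur in 10.7%, 17.5%, 6.57%, 2.26%, 3.14% and 10.9% of all promoters. No binding was measured here.

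Of 11 other connexin and pannexin genes, 2 fell and 0 rose, where 10.1% of all genes and 17.7% of bright genes were called. PANX1, a channel for ATP, had 916, 1067 and 1065 in NS398 arrays, and 1385, 1598 and 1682 in control arrays (-0.61 ± 0.13, limma adjusted p = 0.0198). GJA5 (connexin 40), a connexin of heart and vessels, passed from dim signals of 3.5, 3.7 and 2.1 in NS398 arrays and 16, 47.3 and 43.5 in control arrays (limma adjusted p = 0.0443).

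Of the 36 genes, 21 have more than 1 probe set of their own. In 16 of them at least 2 of these sets were bright, and the bright sets of 11 had the same sign throughout. CTNNA1 (5 probe sets), CTNNB1 (3), DSC2 (4), CGN (2) and CDH1 (2) were lower in NS398 arrays on every set, and CLDN3 (2), CLDN15 (2), MARVELD2 (2) and TJP1 (2) higher on every set. Bright sets of OCLN, MARVELD3, TJP3, DSG2 and PKP3 disagreed in sign, with differences between -0.36 and 0.23, none of them called. On its brightest set OCLN had 3508, 3394 and 3276 in NS398 arrays, and 2818, 3316 and 2996 in control arrays. MARVELD3 had 569.7, 559.6 and 381 in NS398 arrays, and 465, 655 and 615 in control arrays. TJP3 had 791, 952 and 1052 in NS398 arrays, and 817, 900.0 and 751 in control arrays. All 3 of these tight junction genes overlapped between the groups. DSG2 had 3592, 3572 and 3482.5 in NS398 arrays, and 3646, 3214 and 3416 in control arrays. PKP3 had 1733, 1871 and 2129 in NS398 arrays, and 2223, 1583 and 1721 in control arrays, with control replicate 1 as the highest of the 6. The called genes CLDN2, CLDN7, JUP, GJB1, GJB2 and GJB6 rest on a single probe set each.

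**Figure D4:**
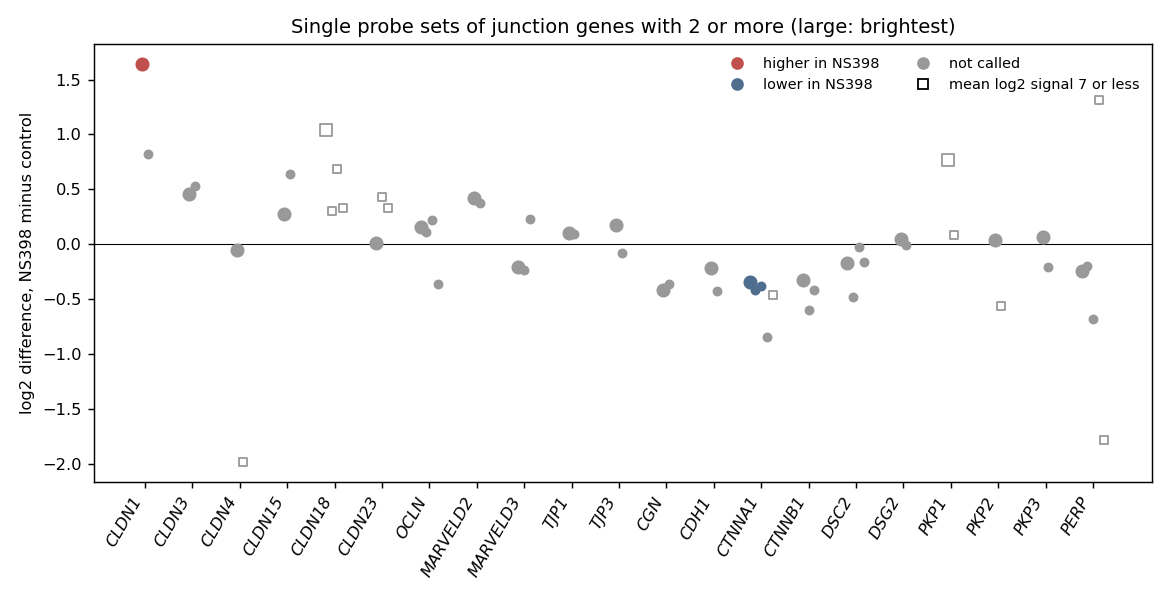
Log2 difference (NS398 minus control, y axis) of each probe set of the 21 junction genes with at least 2, the largest symbol being the brightest probe set of a gene. Red and blue mark sets called higher and lower in NS398 arrays, grey sets were not called and open squares have a mean log2 signal of 7 or less; all 5 sets of CTNNA1 lie below 0, and dim sets of PERP lie on both sides.

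Under the 15 alternative settings the 8 called genes kept their sign throughout. CLDN1 and JUP passed in 14 of 15, GJB6 in 13 of 14, CLDN2 in 12, CLDN7 and GJB2 in 9, GJB1 in 8 and CTNNA1 in 6 of 15. The difference stayed between 1.23 and 1.87 for CLDN1, between -1.05 and -0.83 for JUP and between -1.58 and -0.99 for CLDN2. Of the genes that were not called, CLDN3, MARVELD2, CDH3, CTNNB1, DSP and PERP passed in at least 1 setting.

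**Figure D5:**
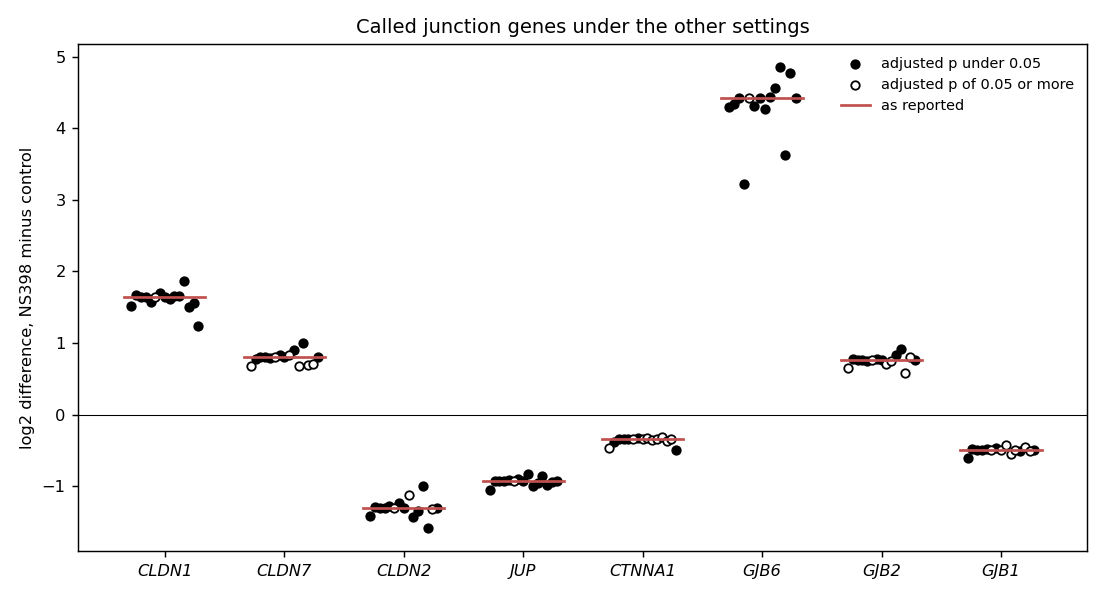
Log2 difference (NS398 minus control, y axis) of the 8 called junction genes under each alternative setting (points), with the reported value as a red line. Filled points have an adjusted p under 0.05 and open points do not; the GJB6 points range from 3.22 to 4.86, and those of CTNNA1 are mostly open.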

How the data were processed

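Gene expression of HT29 cells was measured in 3 NS398-treated and 3 control samples, grouped by their titles. The authors deposited linear intensity values, 1 signal per probe set and array, each array scaled to a mean of 500 after removal of 2% of probe sets at each end. The methods of the study describe gcRMA with quantile normalisation, but array quantiles differ, as in MAS 5.0 signals. The processing notes name the affy package, with no version given in the sources used here. Array medians were 65 to 80.2, and the number of arrays limits precision.

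Signals were put on the log2 scale without offset. Symbols of the platform annotation were updated by Entrez number through the RefSeq table. Of 54675 probe sets, 41097 name 1 gene. A gene with several probe sets was read from the brightest, by mean log2 signal. All probe sets were fitted with lmFit and eBayes (trend, robust) of limma 3.58.1 in R 4.3.3. Treatment was the sole covariate, and the Benjamini-Hochberg adjusted p had to lie under 0.05. The study names SAM, which was not run. The procedure was run on simulated arrays with planted differences and independent noise, without array effects. Such data cannot show which prior variance suits the real arrays. Members, lists and the choice of test were made with earlier results of these data known. All members are accounted for, and of each other list at most 4 called genes are named, those with the smallest adjusted p. The uncalled CDX2, COL1A1, LYZ and repressors of E-cadherin were named outside this rule, after their values were seen. No detection calls were used, and a mean log2 signal of 7 or less is called dim. Settings tried were median centring, quantile normalisation, mean log2 signal above 4 or 7, an offset of 32, plain eBayes, array weights, replicate block, leaving out each array, and averaging the probe sets of a gene. Plots were made in Python 3.11.15 with matplotlib 3.10.9.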

Additional observations from a re-analysis of the deposited data

How the results depend on the processing

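Over 15 settings, 528 differences of junction genes were computed. Of these 450 kept direction and side of the threshold, 34 were no longer called, 12 became called and 32 changed sign, none of them in the 8 called genes. Plain limma had the largest effect, with 24 probe sets called in place of 3513, and 0 junction genes higher and 0 lower. Median centring moved all differences by -0.12, and probe sets split into 864 higher and 1943 lower, against 1782 and 1731 as reported, with 2 junction genes called higher. Leaving out 1 array gave 1826 to 3984 probe sets, 2 to 5 junction genes higher and 1 to 5 lower. The number of a replicate was no pairing in the labels, and deviations of arrays with the same number correlated at -0.14, -0.06 and -0.10 over probe sets. With the replicate block 2462 probe sets were called, and 2 junction genes were lower (CTNNA1 0.115 and GJB1 0.0770 as limma adjusted p). The cause of these changes was not tested.

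Signs changed only in genes that were not called. Median centring gave -0.072 for CLDN16, -0.11 for CLDN23, -0.018 for TJP1, -0.078 for EPCAM, -0.068 for DSG2, -0.080 for PKP2 and -0.058 for PKP3. Quantile normalisation gave -0.10 for CLDN16, -0.053 for EPCAM and -0.031 for GJA1, the offset of 32 gave -0.21 for GJA1, and array weights gave -0.089 for CDH17. The mean of all probe sets gave -0.26 for PKP2 and -0.073 for PKP3. With 1 array left out, differences ranged between -0.25 and 0.16 for CLDN4, -0.30 and 0.52 for CLDN16, -0.25 and 1.81 for CLDN18, -0.12 and 0.18 for CLDN23, -0.42 and 1.10 for CDH17, -0.023 and 0.13 for EPCAM, -0.039 and 0.21 for PKP3, and -0.69 and 1.77 for GJA1. Differences of dim genes are limited by signals near background.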
